A study of Mus musculus with 29 samples.

Results

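The genes of the endothelial cell surface and its activation examined here were Sele, Selp, Vcam1, Icam1, Madcam1, Pecam1, Cdh5, Angpt2, Ackr1 and Plvap, 10 of the 54532 genes counted in colon RNA. They were chosen by name, through the Ensembl identifier that carries each symbol, with earlier results of these data known. All 10 passed the filter on low counts (a mean of at least 3 counts over all mice), as did 18616 genes in all. RNA-seq libraries of colon segments from 29 mice, 1 library each, formed 6 colitis models and 3 untreated control groups. Untreated Balb/C mice (WT, n = 3) were the control of Balb/C mice given 3% DSS in drinking water for 5 days and culled at day 10 (DSS, n = 3), of Balb/C mice given 3 mg of DNBS rectally in 200 µl (DNBS, n = 3), and of the IL10 group (n = 4). The labels call the latter Balb/C mice treated with an IL10 blocking antibody, with a dose of 750 µg stated for an antibody against the IL-10 receptor and culling after 4 weeks, while the study's text describes mice that lack Il10. Untreated Balb/C Rag2-/- mice (n = 3) were the control of the TRUC mice (n = 4), labelled Balb/C Tbx21-/- x Rag2-/- and untreated. Untreated mice labelled C57BL/6 Rag1-/- (n = 3) were the control of mice of the same genotype label that received 500000 naive CD4+ T cells and were culled after 6 to 8 weeks (TCT, n = 3), and of those given 50 µg of agonistic anti-CD40 antibody and culled after 7 days (anti-CD40, n = 3). The labels of the TCT mice conflict: the genotype reads Rag1-/-, while the treatment text names Rag2-/- hosts. The TRUC, anti-CD40 and untreated Rag groups share the lack of T and B cells that the loss of either Rag gene causes, and TCT mice hold only the T cells they were given. Ages were not given in the labels. The study's text departs from the labels for DSS and TCT as well. For DSS it names C57BL/6 as the strain and places the cull before day 10. For TCT it places the cull earlier than the label, between 4 and 6 weeks. The labels were followed here, and whether DSS and WT mice also differ in strain was not tested.

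Leukocytes leave the blood through postcapillary venules in steps. Selectins on the endothelium (Sele, E-selectin, and Selp, P-selectin) let the cells roll, and members of the immunoglobulin family (Vcam1, Icam1 and Madcam1) then bind leukocyte integrins and hold them. MAdCAM-1 is the gut address for lymphocytes that carry the α4β7 integrin. TNF and IL-1 induce E-selectin, VCAM-1 and ICAM-1 in endothelium through NF-kB. The other members describe the vessel itself: Pecam1 (CD31) and Cdh5 (VE-cadherin) are junction proteins, Plvap forms the diaphragms of fenestrae and caveolae, Ackr1 is an atypical chemokine receptor of venules, and Angpt2 is a ligand that destabilizes vessels. In GRCm38, all 10 are protein-coding genes, and the values below count reads over their exons: Sele (chr1:164048234-164057677, plus strand), Selp (chr1:164115264-164150026, plus strand), Ackr1 (chr1:173331886-173333750, minus strand), Vcam1 (chr3:116109949-116129688, minus strand), Icam1 (chr9:21015985-21028817, plus strand), Madcam1 (chr10:79664559-79668537, plus strand), Pecam1 (chr11:106654217-106750628, minus strand), Angpt2 (chr8:18690263-18741562, minus strand), Plvap (chr8:71497765-71511752, minus strand) and Cdh5 (chr8:104101625-104144511, plus strand). Several are also made outside endothelium: Icam1 in epithelium and leukocytes, Vcam1 in stromal cells and macrophages, Pecam1 and Selp in platelets, and Ackr1 in erythroid cells.

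Total counts per mouse ran from 10725564 to 14977094. Levels are given as counts-per-million values (CPM) on the TMM scale of edgeR, and each difference is a log2 fold change from edgeR's quasi-likelihood fit with its standard error (SE) and an adjusted p (Benjamini-Hochberg over all genes tested); a gene is called higher or lower where the adjusted p is under 0.05. DSS mouse 8 had the highest level of all 10 genes in its group, and its summed level of 7 neutrophil markers was 2548 CPM against 508 and 771 CPM in the other DSS mice, so calls and counts of DSS that change without it are also given without it. The genotype labels of the Rag1-/- libraries are in doubt, and reads of other targeted genes were found as well. Reads of Rag2 were found in the untreated mice labelled Rag1-/- (6 to 20 counts) and in the anti-CD40 mice (48 to 99 counts), as in the Rag2-/- (15 to 25) and TRUC mice (57 to 94), but in none of the TCT mice, where Rag1 had 20 to 33 counts against at most 4 in any other mouse. Tbx21 had 26 to 52 counts in the TRUC mice, labelled Tbx21-/-, against 1 to 7 in the Rag2-/- mice, and Il10 had 61 to 111 counts in the IL10 group against 1 to 4 in WT. Counts per gene do not show which exons these reads came from. TCT was also compared with WT, and anti-CD40 with the Rag2-/- mice. Replicate mice are separate animals. A p-value of the edgeR fit weighs a group difference against the spread between replicate mice, estimated over all 9 groups. Since the tissue is whole colon, fewer endothelial cells and less RNA per endothelial cell cannot be told apart.

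Of the 5 adhesion molecules, Selp was called higher in all 6 models (in 3 of them not without every mouse), Vcam1, Icam1 and Madcam1 in 5 each (all but DNBS), and Sele in 3 (DSS, TCT and TRUC). The 5 genes of the vessel itself were called higher in at most 2 models each. Pecam1 was higher in DSS and lower in the IL10 group, Cdh5 was higher in DSS and DNBS, Plvap in DSS and the IL10 group, Ackr1 in DSS alone, and Angpt2 was called in no model. In DSS, 9 of the 10 genes were called higher, where 17.7% of all genes tested were, and 0 were called lower (16.3% of all genes). Each of these 9 was higher in all 3 DSS mice than in every WT mouse, as were 25.9% of all genes. Without DSS mouse 8, 7 of the 10 were called higher, where 10.4% of all genes were. The share of all genes higher in every mouse than in all control mice was 15.6% in DNBS, 19.2% with anti-CD40, 21.4% in TCT, 27.6% in the IL10 group and 28.8% in TRUC, the background for each gene below whose mice all lay above their controls. In TRUC, 5 were called higher (22.4% of all genes) and 0 lower (23.4%), in TCT 5 higher (16.1%) and 0 lower (14%), and in the IL10 group 5 higher (27.2%) and 1 lower (26.1%). With anti-CD40, 4 were called higher (10.9%) and 0 lower (10.7%), and with DNBS 2 higher (3.95%) and 0 lower (2.21%). These shares are also the background for the counts of the other gene lists below. At an unadjusted p under 0.05, 1 gene was lower in TRUC (27.3% of all genes), 2 with anti-CD40 (18%) and 0 in DSS (21.1%), DNBS (10.4%) and TCT (19.5%). DESeq2, fitted to each pair of groups, called 1 lower in TRUC (24.4% of all genes), 1 with anti-CD40 (10.5%) and 0 in DSS (13.5%), DNBS (4.61%) and TCT (12.5%). The 10 genes had a median log2 fold change of 2.17 in DSS, 1.29 in TCT, 0.87 in the IL10 group, 0.83 in TRUC, 0.69 with DNBS and 0.27 with anti-CD40, where the median over all genes tested lay between -0.03 and 0.02.

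**Figure D1:**
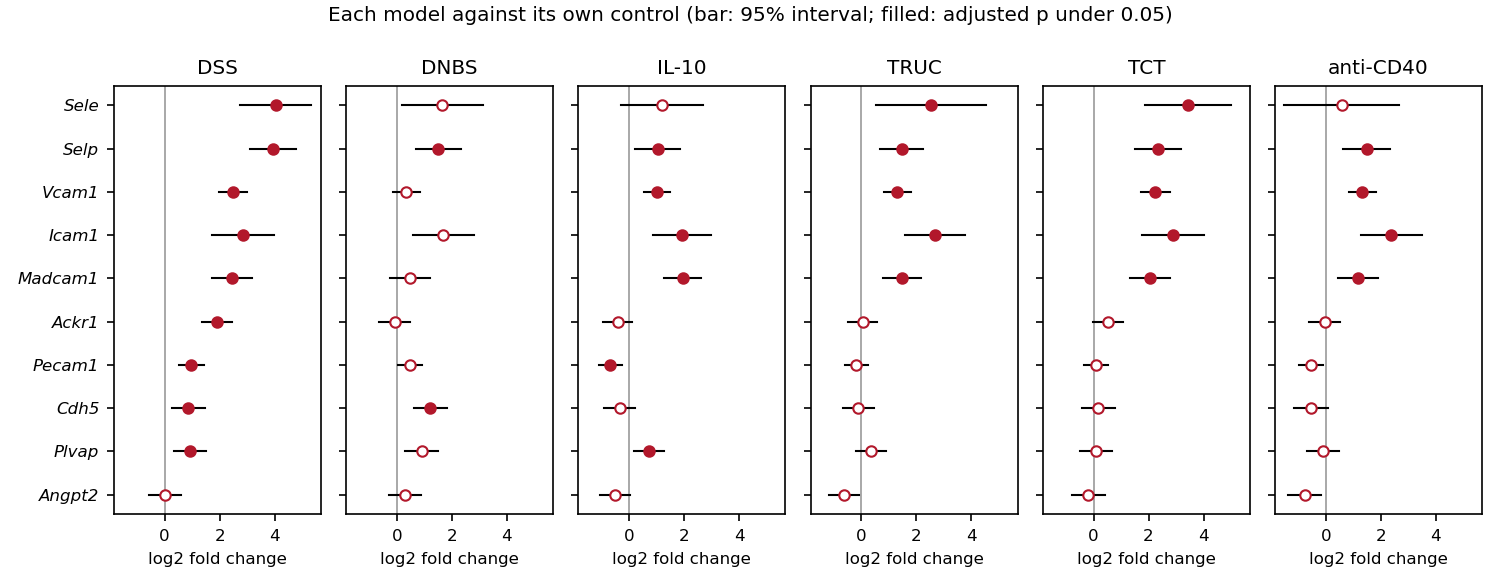
Log2 fold change (horizontal axis) of each of the 10 genes in each model against its own control, with the 95% interval; filled points have an adjusted p under 0.05. The 5 adhesion molecules in the upper rows lie to the right of 0 in all 6 panels, and the 5 genes below them lie on both sides of 0, with Ackr1 at 1.90 in DSS.

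Each of the 5 adhesion genes was called higher in at least 3 models, and the 250 bases before the start site were read from RefSeq (GRCm38.p6). Of the 10 genes, 5 matched an entry by symbol: Sele, Selp, Icam1, Madcam1 and Ackr1. The motif searched was GGNNNTTCC, the core of sites bound by NF-kB, on both strands; it was chosen after the promoters were seen. It is present in 15.7% of the 32851 promoters of the table and in 5 of these 5. Because the motif was chosen after these promoters were seen, the 5 of 5 cannot be weighed against that share. These 5 are also not the 5 adhesion genes, since they include Ackr1 and lack Vcam1. The longer NF-kB consensus of 10 bases overlaps it, is present in 7.25% of the promoters, and was matched in 1 of the 5, Madcam1. The promoters of Sele (chr1:164047984-164048233, plus strand), Icam1 (chr9:21015690-21015939, plus strand) and Madcam1 (chr10:79664309-79664558, plus strand) are shown because together they hold the short motif on either strand and the longer one. Capitals mark the matches.
Sele: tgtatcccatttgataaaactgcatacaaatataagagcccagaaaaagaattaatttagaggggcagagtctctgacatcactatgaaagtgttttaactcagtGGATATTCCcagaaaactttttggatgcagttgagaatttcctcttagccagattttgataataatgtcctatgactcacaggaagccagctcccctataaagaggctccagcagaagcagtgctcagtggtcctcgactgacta
Icam1: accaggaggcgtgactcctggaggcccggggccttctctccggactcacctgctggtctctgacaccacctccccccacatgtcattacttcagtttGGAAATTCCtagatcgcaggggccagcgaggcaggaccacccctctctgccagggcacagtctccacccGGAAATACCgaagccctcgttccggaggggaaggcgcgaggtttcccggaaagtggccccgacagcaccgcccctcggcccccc
Madcam1: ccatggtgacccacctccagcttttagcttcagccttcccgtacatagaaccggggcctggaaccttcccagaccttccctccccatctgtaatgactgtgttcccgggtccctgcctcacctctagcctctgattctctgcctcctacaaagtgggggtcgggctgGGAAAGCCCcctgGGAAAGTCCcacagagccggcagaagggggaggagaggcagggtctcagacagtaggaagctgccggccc
The match in Sele, on the plus strand, begins 145 bases before the start site. Icam1 holds a match 153 bases before it that reads on both strands, and another at 84 bases on the minus strand. Madcam1 holds matches at 83 and 70 bases, both on the minus strand and both also matching the longer consensus. A match is a description of the letters and not a measured site.

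Sele, E-selectin, was nearly silent in healthy colon and was the scarcest of the 10 genes. It had 2 or 3 counts in each WT mouse, 1 or 2 in the untreated mice labelled Rag1-/-, and 0, 0 and 2 counts in the Rag2-/- mice. In the DSS mice it had 19, 35 and 85 counts, or 1.19, 2.39 and 6.79 CPM. All 3 lay above every WT mouse, and Sele was called higher in DSS (log2 fold change 4.04, SE 0.63, adjusted p = 5.35e-05). From so few counts the size of the change is best read from the summed counts: the ratio of DSS to WT was 16.3 (95% counting interval 8.04 to 38.5). In TCT the mice had 5, 19 and 18 counts (0.436, 1.62 and 1.67 CPM), all above the untreated mice, with a ratio of 11.6 (95% counting interval 4.21 to 44.6) and a call (log2 fold change 3.43, SE 0.76, adjusted p = 0.00134). TRUC mice had 5, 3, 6 and 3 counts, all above the Rag2-/- mice, and Sele was called (log2 fold change 2.54, SE 0.96, adjusted p = 0.0347). The ratio of 6.66 (95% counting interval 1.58 to 59.4) rests on 2 control counts, both in Rag2-/- mouse 4, and the TRUC call was lost with DESeq2 (adjusted p = 0.0728) and without Rag2-/- mouse 1 (adjusted p = 0.114) or 2 (0.125), or TRUC mouse 2 (0.0535) or 4 (0.0839). DNBS mice (11, 10 and 6 counts) and IL10 mice (3, 8, 6 and 3) lay above all WT mice in CPM but were not called (log2 fold change 1.66, adjusted p = 0.153, and log2 fold change 1.20, adjusted p = 0.167), with ratios of 3.29 (95% counting interval 1.45 to 8.38) and 2.36 (95% counting interval 0.996 to 6.20). Anti-CD40 mice had 2, 1 and 3 counts and overlapped their controls (log2 fold change 0.59, adjusted p = 0.723). In DSS Sele remained called without mouse 8 (log2 fold change 3.10, adjusted p = 0.000524). The counting intervals cover counting error only.

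Selp, P-selectin, which platelets and endothelium hold ready in granules, was the only member called in all 6 models. The WT mice had 1.22, 1.40 and 0.984 CPM and the DSS mice 8.49, 18.7 and 29.1 CPM. The lowest DSS mouse lay above the highest mouse of any other group, and the rise was 15.4-fold (log2 fold change 3.95, SE 0.40, adjusted p = 6.52e-07). TCT followed with 4.36, 5.55 and 6.30 CPM against 0.567, 0.883 and 1.72 in its controls (5.11-fold, log2 fold change 2.35, SE 0.41, adjusted p = 0.000101). In the other 4 models the log2 fold changes ran from 1.03 to 1.51. TRUC mice had 3.24, 4.00, 2.66 and 3.74 CPM against 1.5, 1.22 and 0.981 in the Rag2-/- mice (2.76-fold, log2 fold change 1.46, SE 0.38, adjusted p = 0.00355). DNBS mice had 2.27, 3.49 and 4.69 CPM (2.85-fold, log2 fold change 1.51, SE 0.40, adjusted p = 0.0271). Anti-CD40 mice had 2.91, 3.43 and 2.58 CPM (2.81-fold, log2 fold change 1.49, SE 0.41, adjusted p = 0.0127), and IL10 mice 2.53, 3.64, 1.80 and 1.99 CPM (2.05-fold, log2 fold change 1.03, SE 0.39, adjusted p = 0.0289). In each of the 6 models every mouse lay above all mice of its control. The DNBS call was lost when any WT mouse (adjusted p between 0.0761 and 0.0986), DNBS mouse 14 (0.0818) or DNBS mouse 16 (0.139) was left out. In a fit of DNBS and WT alone it was also lost (0.0552). The IL10 call was lost with upper quartile scaling (0.0549) and without WT mouse 1 (0.0686) or 4 (0.0949) or IL10 mouse 2 (0.104), and the anti-CD40 call without untreated mouse 2 (0.0638) or 3 (0.0610) or anti-CD40 mouse 7 (0.0599). Of 5 platelet markers tested, 1 was called higher in DSS (Itga2b) and in DNBS, 1 higher and 1 lower in TRUC, 2 and 1 in TCT, and 2 lower in the IL10 group and 1 with anti-CD40, and Gp9, Treml1 and Tubb1 had at most 3 counts in any WT or DSS mouse. The summed level of the 8 platelet genes was 55.1 to 63.0 CPM in WT and 68.9 to 92.8 CPM in DSS, most of it Itgb3 and Pf4, so the groups did not overlap, and its part in Selp was not tested. Gp1ba and Ppbp, with at most 11 counts in any WT or DSS mouse, had lower means in DSS than in WT. These were 0.455 against 0.644 CPM and 0.221 against 0.364 CPM, respectively.

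Vcam1, the ligand of the α4 integrins, had the smallest standard errors of the adhesion molecules. WT mice had 20.3, 19.1 and 19.3 CPM, and DSS mice 83.1, 81.9 and 159.8 CPM. Each DSS mouse lay above every mouse of the other groups (5.53-fold, log2 fold change 2.47, SE 0.25, adjusted p = 4.84e-07). TCT mice had 74.3, 50.4 and 68.4 CPM against 11.5, 16.8 and 12.2 in their controls (4.76-fold, log2 fold change 2.25, SE 0.25, adjusted p = 2.73e-07), and anti-CD40 mice 37.8, 34.8 and 29.6 CPM (2.52-fold, log2 fold change 1.33, SE 0.24, adjusted p = 0.000596). TRUC mice had 34.7, 32.5, 35.9 and 25 CPM against 12.7, 10.3 and 15.6 in the Rag2-/- mice (2.48-fold, log2 fold change 1.31, SE 0.23, adjusted p = 0.000118). IL10 mice had 35.0, 40.8, 53.1 and 29.9 CPM (2.03-fold, log2 fold change 1.02, SE 0.23, adjusted p = 0.000722). None of these ranges overlapped their controls. DNBS mice had 24.7, 21.1 and 28.6 CPM, also above all WT mice, but the difference of 0.34 on the log2 scale (95% interval -0.15 to 0.84) did not pass (adjusted p = 0.386). The calls in the 5 other models held under every alternative setting and without any single mouse. Vcam1 is also made by macrophages, and of 7 macrophage markers 6 were called higher in DSS, TRUC and TCT, 3 in the IL10 group and with anti-CD40, and 2 with DNBS, while Mertk was called lower in all but the anti-CD40 mice. Their summed level was 273 to 331 CPM in WT and 664 to 1253 CPM in DSS, with mouse 8 highest, and its part in Vcam1 was not tested.

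Icam1, which binds the β2 integrins of neutrophils and other leukocytes, rose in 5 models, by log2 fold changes from 1.91 to 2.90. WT mice had 7.16, 8.19 and 11.6 CPM, the untreated mice labelled Rag1-/- 6.72, 9.57 and 9.03 CPM, and the Rag2-/- mice 5.13, 6.19 and 8.68 CPM. TCT mice had 66.9, 48.8 and 73.6 CPM (7.46-fold, log2 fold change 2.90, SE 0.55, adjusted p = 0.000266). DSS mice had 33.6, 23.8 and 136 CPM (7.18-fold, log2 fold change 2.84, SE 0.54, adjusted p = 0.000360), with mouse 8 far above the others, and without it the difference stayed called (log2 fold change 1.68, adjusted p = 0.00944). TRUC mice had 36.6, 67.0, 42.3 and 24.8 CPM (6.37-fold, log2 fold change 2.67, SE 0.53, adjusted p = 0.000347), anti-CD40 mice 44.4, 51.3 and 37.1 CPM (5.23-fold, log2 fold change 2.39, SE 0.54, adjusted p = 0.00323), and IL10 mice 35.8, 27.1, 44.8 and 27.1 CPM (3.76-fold, log2 fold change 1.91, SE 0.51, adjusted p = 0.00335). None of these 5 models overlapped its control. DNBS mice had 12.4, 18.2 and 57.0 CPM, all above WT, but mouse 16 held most of the difference, which missed the threshold (log2 fold change 1.69, adjusted p = 0.0563). In repeats, without that mouse it was smaller (log2 fold change 0.77, adjusted p = 0.491), and without mouse 11 it was called (log2 fold change 2.06, adjusted p = 0.0162). An antisense gene, Gm47079, overlaps Icam1 over 13.11% of the 50-base windows of its exons, and had at most 1 count in any mouse. Icam1 is also made by leukocytes and epithelium. Of 7 neutrophil markers, 7 were called higher in DSS (6 without mouse 8) and in TRUC, 6 in DNBS, TCT and the IL10 group, and 5 with anti-CD40. Their summed level was 131 to 145 CPM in WT and 508 to 2548 in DSS. It was 211 to 338 CPM in Rag2-/- mice and 1536 to 2100 in TRUC. Nearly all of the control sums was Ly6g, with means of 136 CPM in WT and 264 CPM in Rag2-/- mice. In WT the mean of S100a8 was 0.201 CPM and that of Cxcr2 was 0. Of 7 epithelial markers, 5 were higher in the IL10 group, 4 in TRUC, 2 with anti-CD40 and 1 each in DSS, DNBS and TCT, and 2 were lower in DSS and 1 each, Car1, in TRUC and with anti-CD40. Without DSS mouse 8, 0 were higher and 3 lower in DSS. The part of either list in Icam1 was not tested.

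Madcam1, the mucosal addressin, was higher in the same 5 models. WT mice had 2.67, 3.06 and 2.54 CPM and DSS mice 12.5, 11.8 and 20.9 CPM (5.44-fold, log2 fold change 2.44, SE 0.35, adjusted p = 2.01e-05). IL10 mice had 8.34, 10.9, 17.1 and 6.27 CPM (3.85-fold, log2 fold change 1.95, SE 0.33, adjusted p = 5.03e-05), and mouse 3 reached the range of DSS. TCT mice had 12.8, 7.69 and 7.13 CPM against 2.03, 2.21 and 2.41 in their controls (4.15-fold, log2 fold change 2.05, SE 0.35, adjusted p = 9.76e-05). TRUC mice had 6.56, 5.60, 6.32 and 5.04 CPM against 1.5, 1.45 and 3.32 (2.79-fold, log2 fold change 1.48, SE 0.34, adjusted p = 0.00122), and anti-CD40 mice 6.29, 3.34 and 5.45 CPM (2.26-fold, log2 fold change 1.18, SE 0.36, adjusted p = 0.0205). None of the 5 overlapped its control, and DNBS mice, with 3.70, 3.33 and 4.52 CPM, lay just above WT (log2 fold change 0.48, adjusted p = 0.414). Only the anti-CD40 call depended on single mice: it was lost without untreated mouse 2 (adjusted p = 0.0613) or 3 (0.0659) or anti-CD40 mouse 6 (0.0867). Its rise in DSS stayed called without mouse 8 (log2 fold change 2.14, adjusted p = 0.000158). MAdCAM-1 is also made by follicular stroma. Of 7 follicular dendritic and B cell markers 3 were higher in DSS (Cxcl13, Ms4a1 and Cd79a; Cxcl13 alone without mouse 8) and 1, Cxcl13, in each of TRUC, TCT, the IL10 group and anti-CD40 mice, and their part in Madcam1 was not tested. Itgb7, the β chain of its lymphocyte ligand α4β7, was called higher in DSS, TRUC, TCT and the IL10 group. In the IL10 group Itgb7 rose from 8.20 to 40.6 CPM on average (log2 fold change 2.31, SE 0.41, adjusted p = 7.47e-05). Itga4, the α4 chain, did not follow it there, with means of 14.6 CPM in WT and 15.2 CPM in the IL10 group.

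**Figure D2:**
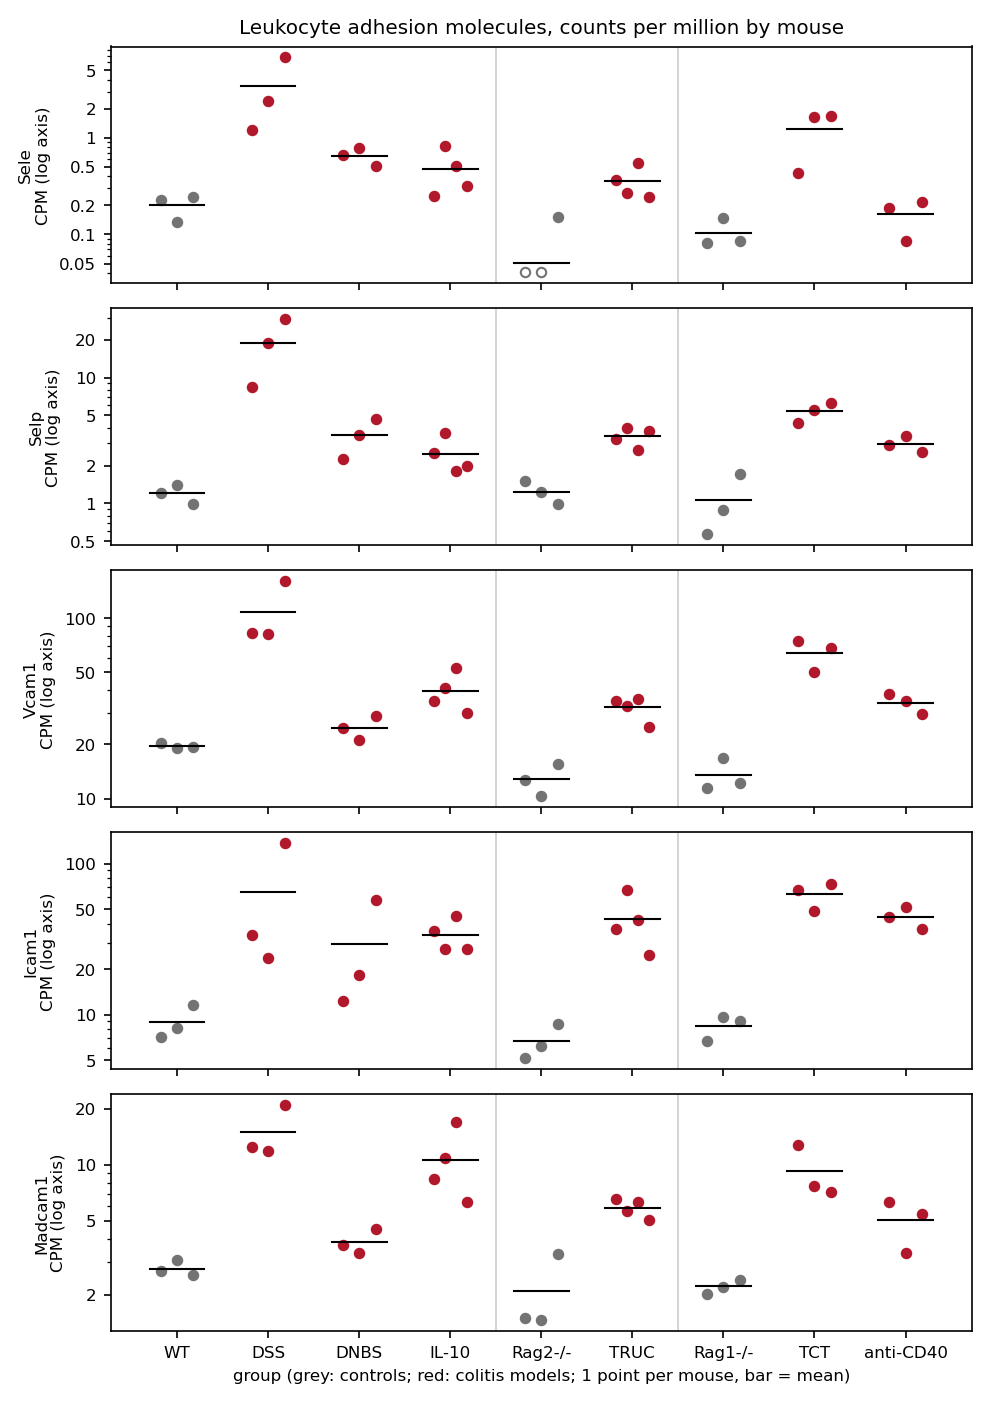
CPM of Sele, Selp, Vcam1, Icam1 and Madcam1 in each mouse (log axis) by group, controls in grey and models in red, with the group mean as a bar; open circles are mice with a count of 0, drawn at the foot of the axis. Vertical lines separate groups with different controls. In Selp, Vcam1, Icam1 and Madcam1 the red points of every model lie above the grey points of its control.

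Of the junction genes, Pecam1 was called higher in 1 model and lower in another, and Cdh5 was called higher in 2. Pecam1 was the most abundant junction gene, with 80.0, 85.2 and 74.7 CPM in the WT mice. It rose in DSS to 129.9, 165 and 176 CPM (1.96-fold, log2 fold change 0.97, SE 0.21, adjusted p = 0.00132) and fell in the IL10 group to 55.5, 54.9, 59.4 and 28.5 CPM (log2 fold change -0.69, SE 0.20, adjusted p = 0.00605). All DSS mice lay above and all IL10 mice below the WT mice, and both calls held without any single mouse. In the IL10 group 5 of 6 smooth muscle markers were lower, with a summed level of 2627 to 4952 CPM against 6484 to 8056 in WT. The sum was also lower in TRUC, with 2967 to 4350 CPM against 5975 to 6583 in Rag2-/- mice. The part of these markers in Pecam1 was not tested. Anti-CD40 mice, with 39.1, 39.4 and 51.7 CPM, lay below all their controls (55.3 to 68.2 CPM) without a call (log2 fold change -0.54, adjusted p = 0.0750), which DESeq2 on these groups gave (adjusted p = 0.0160), and TRUC (45.2 to 57.8 CPM) and TCT (58.8 to 77.1 CPM) overlapped theirs. Cdh5 rose from 22.2, 21.2 and 24.6 CPM in WT to 31.6, 44.1 and 47.4 CPM in DSS (1.81-fold, log2 fold change 0.86, SE 0.29, adjusted p = 0.0257) and to 36.8, 88.0 and 32.4 CPM with DNBS (2.31-fold, log2 fold change 1.21, SE 0.29, adjusted p = 0.0178). DNBS mouse 14 stood far above its group, and without it the DNBS difference did not pass (log2 fold change 0.62, adjusted p = 0.189). The call was also lost in a fit of these groups alone (0.0962) and without WT mouse 1 (0.0791) or 2 (0.0792). Without DSS mouse 8 the DSS call of Cdh5 was lost (log2 fold change 0.74, adjusted p = 0.101), as it was without WT mouse 1 (0.0700), WT mouse 2 (0.0801) or DSS mouse 6 (0.0602). The other 4 models gave Cdh5 log2 fold changes from -0.53 (anti-CD40) to 0.17 (TCT), with no call.

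Plvap, of the fenestral diaphragm, had the highest level per length of the 10 genes in WT colon. Its CPM was 45.1, 47.3 and 59.3 in WT, 75.0, 97.7 and 113 in DSS and 75.0, 83.1, 123 and 50.8 in the IL10 group. DSS did not overlap WT (1.88-fold, log2 fold change 0.91, SE 0.28, adjusted p = 0.0154), while IL10 mouse 4 lay within the WT range although the group was called (1.65-fold, log2 fold change 0.72, SE 0.27, adjusted p = 0.0276). The DSS call was lost without DSS mouse 8 (log2 fold change 0.77, adjusted p = 0.0772), WT mouse 1 (0.0616) or WT mouse 2 (0.0544), and the IL10 call with upper quartile scaling (0.0796), in a fit of IL10 and WT alone (0.0520) and without WT mouse 1 (0.0983), WT mouse 2 (0.0882) or IL10 mouse 3 (0.139). DNBS mice had 60.03, 149 and 73.8 CPM, all above WT, with mouse 14 again highest and no call (log2 fold change 0.90, adjusted p = 0.0581), though DESeq2 called it (0.0279), as did the fit without mouse 11 (0.0139). In TRUC, TCT and anti-CD40 mice Plvap overlapped the controls, with log2 fold changes from -0.11 to 0.36.

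Ackr1, which carries chemokines across venules, was called in DSS alone. DSS mice had 10.3, 15.2 and 21.3 CPM against 4.57, 3.93 and 4.02 in WT (3.73-fold, log2 fold change 1.90, SE 0.26, adjusted p = 1.70e-05), and the lowest of them exceeded every mouse of the other 8 groups, whose highest had 7.13 CPM. Ackr1 was still called without DSS mouse 8 (log2 fold change 1.61, adjusted p = 0.000153). TCT mice, with 5.24, 5.21 and 7.13 CPM, lay above their controls (3.89, 3.39 and 4.99) without a call (log2 fold change 0.52, adjusted p = 0.149). In the other 4 models the log2 fold change ran from -0.41 (IL10) to 0.05 (TRUC). Erythroid genes also moved in DSS. Their summed level was 137, 46.5 and 98.9 CPM in the DSS mice and 24.8 to 28.7 CPM in WT, with 3 of 6 tested genes called higher (Hbb-bs, Hbb-bt and Alas2), while Slc4a1 (1 to 3 counts in DSS) was near 0. Hemoglobin genes have near-identical copies that can share reads. The calls of these 3 were lost without DSS mouse 8, while the median log2 fold change of the 6 was 1.63 with it and 1.68 without it. In the other models 1 to 3 of the 6 were called lower. The part of the erythroid genes in Ackr1 was not tested. Cadm3 shares 20.35% of the exon windows of Ackr1 on the same strand and had 35 to 308 counts per mouse, so reads from the shared stretch cannot be placed in either with certainty. Angpt2, the vessel-destabilizing angiopoietin, moved little: 5.47, 4.65 and 7.91 CPM in DSS against 7.08, 7.52 and 3.20 in WT (log2 fold change 0.01, adjusted p = 0.984; 95% interval -0.57 to 0.59). It was lowest in the anti-CD40 mice (4.13, 2.31 and 3.01 CPM, log2 fold change -0.77, adjusted p = 0.0617) and TRUC mice (2.95, 4.62, 4.58 and 4.23 CPM, log2 fold change -0.62, adjusted p = 0.0576), which lay below all of their controls (5.08 to 5.59 and 5.81 to 6.81 CPM) but missed the threshold. With upper quartile scaling Angpt2 was called lower in TRUC (adjusted p = 0.0287), with anti-CD40 (0.0475) and in the IL10 group (0.0327), and DESeq2 called it lower in TRUC (0.0202).

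**Figure D3:**
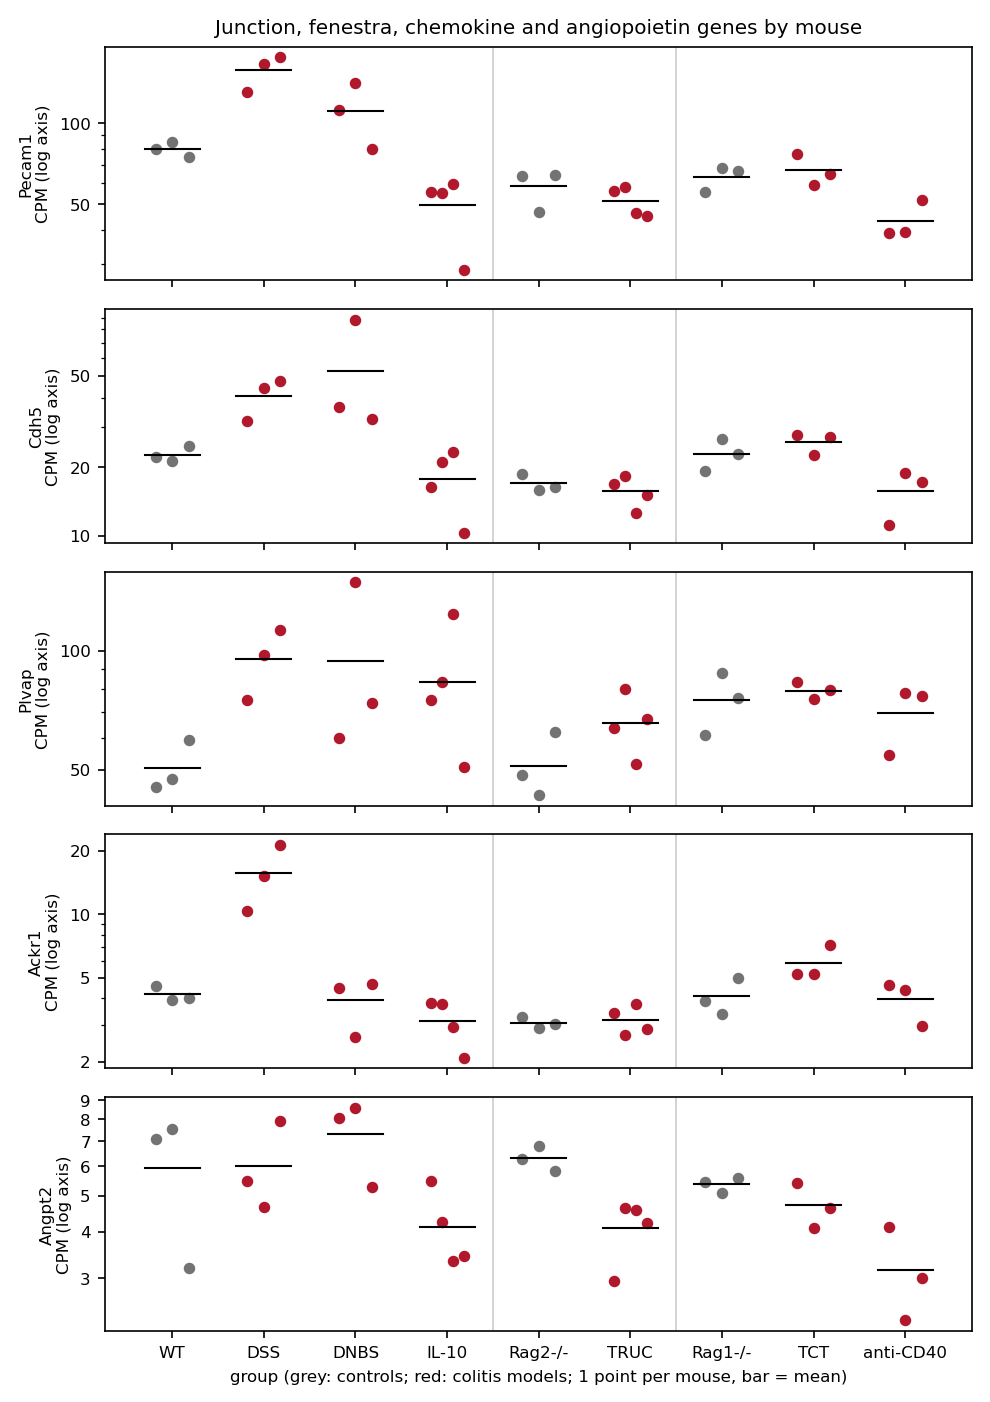
CPM of Pecam1, Cdh5, Plvap, Ackr1 and Angpt2 in each mouse (log axis) by group, controls in grey and models in red, with the group mean as a bar. The DSS mice stand above the WT mice in all panels but Angpt2, Ackr1 is highest in DSS, and DNBS mouse 14, the middle of the 3 DNBS points, is highest in Cdh5 (88.0 CPM) and Plvap (149 CPM).

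Compared per kilobase of exon, which allows levels to be set between genes, the WT colon held 25.4 ± 3.84 CPM per kb of Plvap, 12.8 ± 0.845 of Pecam1 and 5.39 ± 0.413 of Cdh5 (mean ± SD, n = 3). Ackr1 (2.97 ± 0.248), Vcam1 (2.20 ± 0.0706), Icam1 (2.06 ± 0.538), Madcam1 (1.92 ± 0.189) and Angpt2 (1.61 ± 0.645) followed, and the selectins were far scarcer, at 0.272 ± 0.0471 for Selp and 0.0695 ± 0.0208 for Sele. In DSS the mean of Icam1 was 14.8 ± 14.3 and Vcam1 12.2 ± 5.04 CPM per kb, against 9.77 ± 1.98 for Cdh5 and 25.2 ± 3.84 for Pecam1 (n = 3). Without mouse 8 the means of both other DSS mice were 6.59 for Icam1, 9.30 for Vcam1 and 9.01 for Cdh5, so Icam1 lay above Cdh5 only with that mouse. Across the 9 groups the highest mean of Sele, Selp, Vcam1, Icam1, Madcam1, Pecam1, Ackr1 and Plvap was in DSS, and that of Cdh5 and Angpt2 was in DNBS. For Selp, Vcam1 and Ackr1 the DSS mice did not overlap the next group, TCT. For the other genes with the highest mean in DSS, the next group overlapped it. Without mouse 8 the DSS means of Icam1 (28.7 CPM) and Plvap (86.3 CPM) lay below those of TCT (63.1) and DNBS (94.2), respectively.

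Whether a gene responded differently between models was tested by an F test of equal log2 fold changes in the 6 models. It was passed by 8 of the 10 genes, where 60.5% of all genes tested passed, so the count alone says little about these genes. The smallest adjusted p values were those of Ackr1 (8.21e-07), Vcam1 (1.39e-06), Selp (1.99e-06) and Pecam1 (8.61e-06). Icam1 (0.223) and Plvap (0.272) did not pass, although the log2 fold changes of Icam1 ran from 1.69 to 2.90. Because DSS was high in most genes, its response was then set against that of each other model, a test added after the data were seen. DSS, DNBS and the IL10 group share the WT controls. The DSS response of Ackr1 was larger than that of all 5 other models, by log2 differences of 1.98 (adjusted p = 8.01e-05) against DNBS, 2.31 (adjusted p = 2.46e-07) against the IL10 group, 1.85 (adjusted p = 0.00189) against TRUC, 1.94 (adjusted p = 0.00272) against anti-CD40 and 1.38 (adjusted p = 0.0218) against TCT. Without DSS mouse 8, Ackr1 no longer differed from TCT by this test (1.09, adjusted p = 0.0711) and remained larger than in the other 4. Selp had a larger response in DSS than in DNBS mice (2.44, adjusted p = 0.000184), the IL10 group (2.91, adjusted p = 6.46e-07), TRUC (2.48, adjusted p = 0.00369) and anti-CD40 mice (2.45, adjusted p = 0.00777), also without mouse 8, and against TCT the difference was 1.59, adjusted p = 0.0857. For Vcam1 the DSS response exceeded the same 4 models, by 1.14 to 2.12, but without mouse 8 this was lost for TRUC (adjusted p = 0.0783) and anti-CD40 (0.123). Against TCT the Vcam1 difference was 0.22, adjusted p = 0.780, with a 95% interval of -0.48 to 0.91. Sele responded more in DSS than in DNBS (2.38, adjusted p = 0.00314) and the IL10 group (2.83, adjusted p = 0.000105), the former not without mouse 8 (0.0653), and Madcam1 more than in DNBS (1.97, adjusted p = 0.000495). Pecam1 responded more in DSS than in the IL10 group, TRUC and anti-CD40 mice, by 1.15 to 1.66, and Cdh5 more than in the IL10 group (1.21, adjusted p = 0.000787) and anti-CD40 mice (1.39, adjusted p = 0.0295), the latter not without mouse 8 (0.0760). For Icam1 none of the 5 differences passed, and the 95% interval against TCT, -1.57 to 1.46, leaves room for a difference in either direction. Of the 10 genes, 4 had a larger response in DSS than in TRUC (10.4% of all genes did), 5 than in DNBS (11.4%), 6 than in the IL10 group (25.1%), 5 than with anti-CD40 (7.34%) and 1 than in TCT (3.5%). Without DSS mouse 8 these counts were 3 (7.59% of all genes), 4 (3.69%), 6 (21.1%), 3 (3.81%) and 0 (2.81%), respectively.

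The level of endothelial RNA itself differed between groups. A list of 18 pan-endothelial genes, among them Kdr, Tie1, Tek and Cldn5, had counts in every group, so endothelium was present throughout. Its summed level was 229 to 247 CPM in the WT mice and 339 to 446 CPM in the DSS mice, was 257 to 453 CPM with DNBS, and was 154 to 244 CPM in the IL10 group. It was 187 to 243 CPM in Rag2-/-, 147 to 187 in TRUC, 215 to 264 in the untreated mice labelled Rag1-/-, 235 to 254 in TCT and 149 to 197 in anti-CD40 mice. In DSS 13 of the 18 were called higher (median log2 fold change 0.76 against 0.02 over all genes) and 7 without mouse 8, while in TRUC 1 was higher and 8 lower (median log2 fold change -0.52 against -0.03 over all genes), with anti-CD40 1 and 6, in the IL10 group 2 and 5, with DNBS 2 higher and in TCT 1 higher. Ecscr, an endothelial signaling regulator, was the gene called higher in TRUC, TCT and anti-CD40 mice, and in TCT it rose from 5.11 to 20.0 CPM on average (log2 fold change 1.96, SE 0.30, adjusted p = 2.77e-05). The libraries were therefore also scaled to these 18 genes, so that each member is read relative to endothelial RNA. In DSS the 5 adhesion molecules and Ackr1 were still called higher, with Sele at 3.22, Selp at 3.14 and Ackr1 at 1.12 on the log2 scale, but Pecam1 (log2 fold change 0.22, adjusted p = 0.259), Cdh5 (log2 fold change 0.09, adjusted p = 0.700) and Plvap (log2 fold change 0.15, adjusted p = 0.533) were not. In TRUC and the IL10 group Plvap was higher relative to endothelial RNA (log2 fold change 0.71, adjusted p = 0.00396, and log2 fold change 0.86, adjusted p = 0.000697), and Pecam1 stayed lower in the IL10 group (log2 fold change -0.53, adjusted p = 0.00631). With DNBS only Cdh5 remained (log2 fold change 0.63, adjusted p = 0.0301), and Selp missed the threshold (log2 fold change 1.11, adjusted p = 0.0560). On this scale the median of all genes was -0.71 in DSS, -0.42 in DNBS, 0.30 in TRUC, 0.20 in the IL10 group and 0.43 with anti-CD40, so its values are relative to vessels and not to the tissue.

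**Figure D4:**
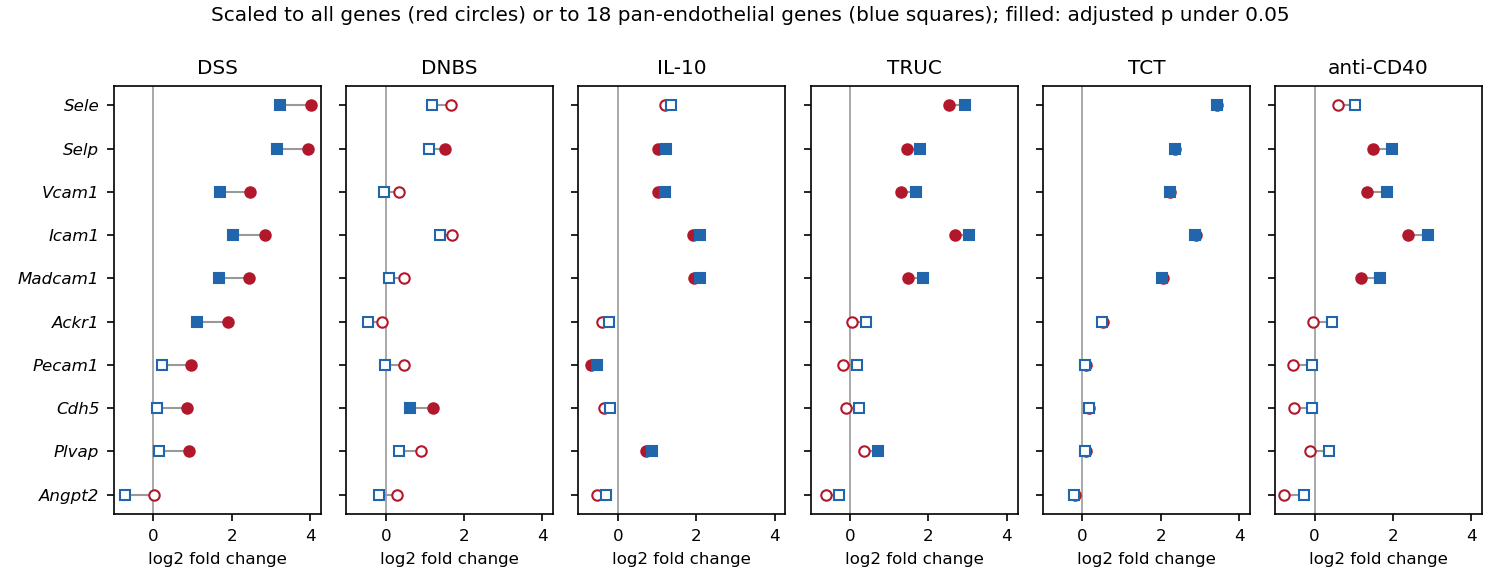
Log2 fold change (horizontal axis) of the 10 genes in each model against its control, with libraries scaled to all genes (red circles) or to 18 pan-endothelial genes (blue squares); filled symbols have an adjusted p under 0.05. In DSS the 10 genes shift to the left and Pecam1, Cdh5 and Plvap come to lie near 0, in TRUC and anti-CD40 mice they shift to the right, and in TCT both scales nearly coincide.

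On the leukocyte side, 13 genes for leukocyte ligands of selectins and for integrins were examined. Of them 11 were called higher in DSS (10 without mouse 8), 10 in TRUC, 10 in TCT, 7 in the IL10 group and 4 with anti-CD40, and Itga9 was lower in TRUC and the IL10 group. In DNBS edgeR called 0 of 13, with 3 at an unadjusted p under 0.05 (14% of all genes) and 5 called by DESeq2 (6.6%). Itgal and Itgb2, the chains of the Icam1 receptor LFA-1, rose in TCT: Itgal from 2.52 to 82.8 CPM on average (log2 fold change 5.02, SE 0.59, adjusted p = 6.03e-07) and Itgb2 from 8.79 to 121 CPM on average (log2 fold change 3.78, SE 0.46, adjusted p = 9.47e-07). Among 12 tested genes for cytokines that act on endothelium and their receptors, 11 were higher in DSS (9 without mouse 8), 10 in TCT, 9 in TRUC, 9 in the IL10 group, 6 with anti-CD40 and 4 with DNBS, and Il1r1, the IL-1 receptor, was lower in the IL10 group and anti-CD40 mice, as was Il4 in the IL10 group. DESeq2 called 7 of the 12 higher in DSS. Il1b rose from 1.35 to 474 CPM on average (log2 fold change 8.47, SE 1.07, adjusted p = 6.34e-06) in DSS, from 0.954 to 63.0 CPM on average (log2 fold change 6.00, SE 1.02, adjusted p = 7.12e-05) in TRUC, and from 1.35 to 17.0 CPM on average (log2 fold change 3.66, SE 0.98, adjusted p = 0.0284) with DNBS. Without DSS mouse 8 the DSS mean of Il1b was 66.2 CPM (log2 fold change 5.63, adjusted p = 1.76e-06), and its DNBS call was lost without any WT mouse or DNBS mouse 14 or 16 (adjusted p between 0.0739 and 0.122). Tnf rose in the IL10 group from 1.27 to 37.4 CPM on average (log2 fold change 4.89, SE 0.86, adjusted p = 6.56e-05) and with anti-CD40 from 1.24 to 14.6 CPM on average (log2 fold change 3.52, SE 0.87, adjusted p = 0.00599), the latter by 4.42 on the log2 scale without untreated mouse 3. The summed level of all 13 cytokine genes was 441, 529.8 and 2677 CPM in DSS mice 5, 6 and 8, so mouse 8, the highest in each of the 10 genes, was also far above the others here. Its part in the DSS values was not tested.

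**Figure D5:**
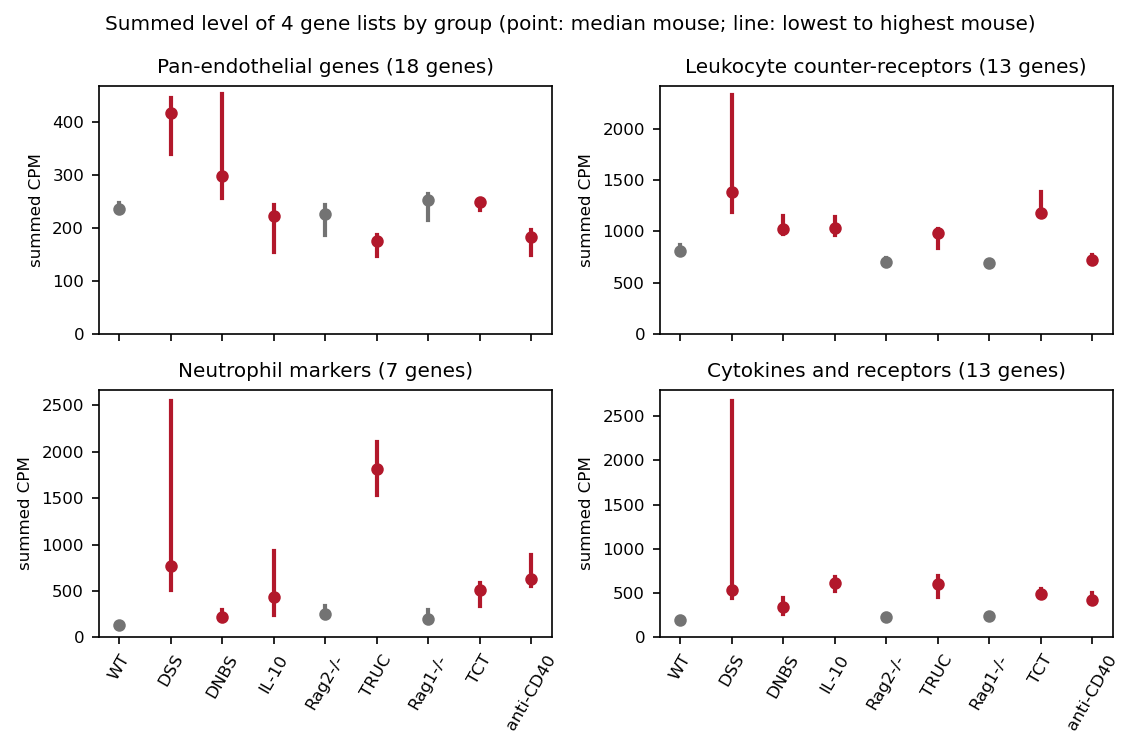
Summed CPM of 18 pan-endothelial genes, 13 leukocyte counter-receptors, 7 neutrophil markers and 13 cytokine and receptor genes by group, with the median mouse as a point and a line from the lowest to the highest mouse (axes start at 0). The pan-endothelial sum is above WT in DSS and below its controls in anti-CD40 mice, and the wide DSS lines in the other panels end at mouse 8. The neutrophil sum of the untreated groups is nearly all Ly6g.

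Other vessel genes went in both directions. The shares of all genes called higher and lower were 17.7% and 16.3% in DSS and 22.4% and 23.4% in TRUC. They were 27.2% and 26.1% in the IL10 group, and 16.1% and 14% in TCT. With anti-CD40 they were 10.9% and 10.7%, and with DNBS 3.95% and 2.21%. A count near these shares says little about the listed genes. Of 12 further adhesion and vessel surface genes, 5 were higher in DSS (Icam2, Vwf, Podxl, Stab1 and Mcam; all but Podxl without mouse 8), but 7 were lower in TRUC, 5 in the IL10 group and 4 with anti-CD40, where only Vwf in the IL10 group was higher. TCT had 2 higher and 1 lower. Aoc3, the amine oxidase VAP-1, fell in TRUC from 35.1 to 11.6 CPM on average (log2 fold change -1.60, SE 0.30, adjusted p = 0.000219), and Cd34 fell in the IL10 group from 77.1 to 25.7 CPM on average (log2 fold change -1.59, SE 0.21, adjusted p = 3.59e-06). Of 9 genes of high endothelial venules, through which lymphocytes enter lymphoid tissue, 2 were higher in DSS and 1 lower. These were Chst4 and Ccl21a, which has near-identical copies, and Gcnt1, respectively, and without mouse 8 only Chst4 was called. TCT had 4 higher and 1 lower, TRUC 2 and 2, the IL10 group 1 and 3, and anti-CD40 2 higher. Glycam1 fell in the IL10 group from 8.35 to 2.02 CPM on average (log2 fold change -2.02, SE 0.64, adjusted p = 0.0104), and without IL10 mouse 3 its log2 fold change was -3.09. Among 14 further angiopoietin, VEGF and tip-cell genes, 7 were higher in DSS (3 without mouse 8), 4 were higher and 1 lower with DNBS, and 4 were lower in TRUC, 2 were higher (Angptl4 and Esm1) and 4 lower in the IL10 group, 3 were lower with anti-CD40, and 1 was higher (Vegfd) and 2 lower in TCT. The 4 higher with DNBS were Angptl4, Esm1, Apln and Aplnr, and Apln, the apelin ligand of sprouting vessels, rose from 1.25 to 7.50 CPM on average (log2 fold change 2.59, SE 0.61, adjusted p = 0.0154), while Vegfa fell. DNBS mouse 14 was highest in Apln, and without it the mean was 3.35 CPM and the call was lost (log2 fold change 1.44, adjusted p = 0.174), as it was without WT mouse 1 (0.0865) or 2 (0.0839). Pgf, placental growth factor, rose in DSS from 0.503 to 3.74 CPM on average (log2 fold change 2.87, SE 0.65, adjusted p = 0.00162), or to 1.90 CPM without mouse 8 (log2 fold change 1.91, adjusted p = 0.0326), and Esm1 fell with anti-CD40 from 1.95 to 0.184 CPM on average (log2 fold change -3.29, SE 0.55, adjusted p = 0.000263). Of 5 lymphatic genes, 4 were lower and 1 (Pdpn) higher in TRUC, with Prox1 from 7.31 to 1.87 CPM on average (log2 fold change -1.96, SE 0.21, adjusted p = 4.03e-07), 3 were higher in DSS, 2 were lower in the IL10 group, Prox1 was lower in TCT and Pdpn higher with DNBS. Of 7 pericyte genes, 3 were lower in TRUC, with Rgs5 from 228 to 72.0 CPM on average (log2 fold change -1.66, SE 0.30, adjusted p = 0.000130), 2 were lower in the IL10 group, Rgs5 was lower with anti-CD40, and Kcnj8 and Abcc9 were higher in DSS.

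Over the 29 mice, the log2 levels of the 5 adhesion molecules correlated with each other from 0.63 to 0.93 (median 0.82, 10 pairs), and Pecam1, Cdh5 and Plvap with each other from 0.47 to 0.89 (median 0.68, 3 pairs). Between both sets r ran from 0.02 to 0.61 (median 0.50, 15 pairs), and Angpt2 correlated with the adhesion molecules from -0.36 to 0.12 (median -0.16, 5 pairs). Ackr1 correlated with the adhesion molecules from 0.36 to 0.75 (median 0.68, 5 pairs). With Pecam1, Cdh5 and Plvap its r ran from 0.30 to 0.68 (median 0.50, 3 pairs). These values describe mice that share groups, controls and libraries, and carry no test. By the same measure the genes most like each member were, for Sele, Serpina3n (r = 0.91), C5ar1 (r = 0.90) and Apod (r = 0.90). For Selp they were Mmp3 (r = 0.89), Lgmn (r = 0.89) and Ms4a6d (r = 0.89), for Vcam1 March1 (r = 0.94), Csf2rb2 (r = 0.94) and Ncf1 (r = 0.94), for Icam1 Cxcl10 (r = 0.97), F830016B08Rik (r = 0.96) and Nlrc5 (r = 0.96), and for Madcam1 C1qa (r = 0.93), Fmnl1 (r = 0.93) and Vcam1 (r = 0.93). For Pecam1 they were Cdk14 (r = 0.94), Ppm1f (r = 0.93) and Mmrn2 (r = 0.93), for Cdh5 Tie1 (r = 0.94), Vwa1 (r = 0.92) and Fkbp10 (r = 0.91), for Plvap Eng (r = 0.90), Fscn1 (r = 0.84) and Lrrc32 (r = 0.84), for Ackr1 Il6st (r = 0.87), Zeb2 (r = 0.84) and Sostdc1 (r = 0.83), and for Angpt2, with the lowest values, Zfp260 (r = 0.79), 1110051M20Rik (r = 0.77) and Lrpap1 (r = 0.77).

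Between untreated groups, 0 of the 10 genes were called higher (3.25% of all genes) or lower (4.86%) in Rag2-/- than in WT mice, and 0 higher (4.77%) or lower (6.18%) in the mice labelled Rag1-/- than in WT. At an unadjusted p under 0.05 edgeR gave 2 (10.8% of all genes) and 1 lower (12.1%), respectively. DESeq2 called 3 lower in Rag2-/- mice (10% of all genes), and 1 higher (8.94%) and 2 lower (9.97%) in those labelled Rag1-/-. Vcam1 was among these in both: the Rag2-/- (12.7, 10.3 and 15.6 CPM) and Rag1-/- mice (11.5, 16.8 and 12.2 CPM) lay below all WT mice (log2 fold change -0.60, adjusted p = 0.156, and log2 fold change -0.53, adjusted p = 0.182), and DESeq2 called both lower (0.00449 and 0.0224). With the other control group, the same 5 genes were called higher in TCT against WT, and Selp, Vcam1, Icam1 and Madcam1 in anti-CD40 mice against the Rag2-/- mice, where Angpt2 was in addition called lower (log2 fold change -1.0, adjusted p = 0.0152). The shares of all genes called in these comparisons are not reported here, so these calls have no background beside them. By their labels, these groups, and the untreated Rag1-/- and WT mice, also differ in strain (C57BL/6 against Balb/C) and Rag genotype.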

How the data were processed

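RNA-seq of colon segments from 29 mice in 9 groups was analysed. The authors deposited raw counts per gene: per the submitters' processing notes, reads were trimmed with Trimmomatic, aligned to GRCm38 with HISAT2 and counted with HTSeq, whose versions and strand setting are not given in the sources used here. The library kit does not mark strand. The 92 spike-in rows of the table had a total of 0 counts.

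Each mouse was placed in its group by its GEO label. The 18616 of 54532 genes whose counts averaged 3 or more were fitted in 1 model of 9 groups with edgeR 4.0.16 (TMM scaling, quasi-likelihood test, R 4.3.3), and p-values were adjusted by Benjamini-Hochberg over all of them, with a threshold of 0.05. Contrasts set each colitis model against its untreated control group, and an F test asked whether the 6 responses were equal. TRUC mice are labelled Tbx21-/- and their Rag2-/- controls are not, so loss of Tbx21 and colitis cannot be told apart there. Levels are CPM on the TMM scale, per kilobase of merged exons where genes are compared. Gene symbols, positions and exon overlaps came from the GRCm38 annotation.

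The 10 members and all lists were chosen with earlier results of these data known. Named beside them were, per list and comparison, the genes past the threshold among the 4 with the largest absolute log2 fold change, and for each member the 3 genes with the highest Pearson correlation. Lists covered endothelium, leukocyte ligands, cytokines, other vessel adhesion genes, high endothelial venules, angiopoietin and VEGF genes, and lymphatic, pericyte, platelet, erythroid, macrophage, neutrophil, follicular, smooth muscle and epithelial markers. Some listed genes are counted in their lists but their own values are not reported here.

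Total counts ran from 10725564 to 14977094 (median 12287039). A level of 3 counts was chosen as the floor and was not tested as a limit of detection. A difference resting on so few counts is uncertain. The 33 pairs of replicate mice differed beyond sampling noise (lowest ratio of chi-square to degrees of freedom 3.46). On simulated counts for the 18616 genes with 200 changed 4- or 8-fold per model, the fit recovered 79% (DNBS) to 86.5% (TRUC and TCT) of these. Alternatives were other scalings (RLE, upper quartile, 18 pan-endothelial genes), other filters, each pair of groups alone, DESeq2 1.42.0, other control groups, a replicate block and leaving out each mouse. The comparison of the DSS response with the other models, and its repeat without DSS mouse 8, were added after the data were seen.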

Additional observations from a re-analysis of the deposited data

Results flagged for a closer look

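In groups of 4 mice, 1 of 20 tested sets of values held a mouse far from the rest. Pecam1 in IL10 mouse 4 was 28.5 CPM, against 54.9 to 59.4 CPM in the other 3; chance flags about 1 set in 20. Without that mouse Pecam1 was still called lower in the IL10 group.

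The response differed between the 6 models for 8 of the 10 genes by edgeR's F test of equal log2 fold changes. Of all genes tested 60.5% passed it, so the count alone says little about these genes. The adjusted p was 1.19e-04 for Sele, 1.99e-06 for Selp, 1.39e-06 for Vcam1 and 4.88e-04 for Madcam1 among the adhesion molecules. It was 8.61e-06 for Pecam1, 2.87e-04 for Cdh5, 8.21e-07 for Ackr1 and 0.0359 for Angpt2. The Angpt2 result held in 21 of the 29 fits that leave out 1 mouse, and with scaling to the 18 pan-endothelial genes it was lost (0.638), while Plvap passed (0.00542).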

How the results depend on the processing

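Of 31 differences called for the 10 genes, 21 kept their call in every alternative, and no called difference turned its direction. The count of genes called higher in DNBS (2) was 1 with pan-endothelial scaling, 4 with no filter on low counts, 0 in a fit of the 2 groups alone, and 0 to 4 without 1 mouse. In the IL10 group, 3 were higher (main 5) and 2 lower (main 1) with upper quartile scaling, and 3 to 5 and 1 to 2 without 1 mouse. Anti-CD40 gave 2 to 4 higher without 1 mouse (main 4). It gave 1 lower (main 0) with upper quartile scaling, the other control group, the 2 groups alone and DESeq2, and 0 to 1 without 1 mouse. TRUC gave 1 lower (main 0) with upper quartile scaling, the edgeR default filter, the 2 groups alone and DESeq2, and 0 to 1 without 1 mouse. Without 1 mouse 4 to 5 genes were higher in TRUC, 7 to 9 in DSS, and 7 to 9 differed between models. In the main fit the shares of all genes were 22.4%, 17.7% and 60.5%, respectively. Against WT, the Rag2-/- mice gave 3 lower with the 2 groups alone and DESeq2, and the mice labelled Rag1-/- 1 higher and 2 lower with either (main 0). The cause of these moves was not tested.

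Over all genes, 6336 were called in DSS, 10226 with pan-endothelial scaling (999 higher, 9227 lower) and 3835 without DSS mouse 8. In DNBS 1148 were called (736 higher, 412 lower), 2687 with pan-endothelial scaling (280 and 2407), 1062 with upper quartile scaling (542 and 520), 628 in the 2 groups alone, 1877 with DESeq2, and 198 to 2342 without 1 mouse. In TCT 5600 were called and 3534 with pan-endothelial scaling. With anti-CD40 4015 were called (2029 higher), 4835 with pan-endothelial scaling (4437 higher), 2315 without untreated mouse 3 and 1749 without anti-CD40 mouse 7. In TRUC 4163 were higher and 4361 lower, and 5188 and 1766 with pan-endothelial scaling. In the IL10 group 5058 were higher and 4858 lower, 3854 and 6187 with upper quartile scaling (median log2 fold change -0.18), and 4950 and 2892 with pan-endothelial scaling. In Rag2-/- against WT 1510 were called, 996 with pan-endothelial scaling, 3714 in the 2 groups alone, 3418 with DESeq2 and 964 without Rag2-/- mouse 2. In the mice labelled Rag1-/- against WT 2038 were called (888 higher, 1150 lower), 2083 with upper quartile scaling (621 and 1462), 1304 with pan-endothelial scaling (391 and 913), 3666 in the 2 groups alone, 3511 with DESeq2, and 1311 to 1348 without untreated mouse 4, WT mouse 1 or WT mouse 2.

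The replicate numbers did not pair the mice (correlation of same-numbered deviations -0.052 to 0.056). With the replicate number as a block, 4 genes were higher in TRUC and 4 in the IL10 group, since Sele in TRUC (adjusted p = 0.0896) and Plvap in the IL10 group (0.159) missed the threshold, and 6929 and 7552 genes were called in all. There is no such fit for DSS, DNBS, TCT and anti-CD40, whose mice share fewer than 2 numbers with their controls. Sele, with 0 to 8 counts in most mice, was limited by depth.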
